A study of Mus musculus with 8 samples.

Results

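The 10 genes described here encode the cadherins Cdh1, Cdh2, Cdh3 and Cdh13, the adhesion molecule Ncam1, the filament protein Vim, and the transcription factors Snai2, Zeb1, Zeb2 and Twist1, all named in discussions of the epithelial-mesenchymal transition. They were chosen by symbol, and each had 1 row of its own among the 23332 transcript clusters of the array, that is 10 of the 14860 genes that had one. RNA was measured on 8 exon arrays of MK546, a mouse keratinocyte line from newborn mice that lack integrin α3, and of 3 lines derived from MK546. The parent, which has neither introduced subunit, is called the null line. The α3 line carries human α3 by stable transfection, the α9 line carries human α9 by stable retroviral transduction, and the α3α9 line carries both. All 4 lines lack mouse α3, carry the immortalizing SV40 large T antigen of the parent, and grew at 33 °C and 8% CO2 on denatured rat tail collagen (30 µg per ml) in medium with 4% serum freed of calcium, 0.05 mM CaCl2, 0.4 µg per ml hydrocortisone, 5 µg per ml insulin, 10 units per ml interferon-γ and 10 ng per ml EGF. Each combination of subunits is 1 line with 2 arrays, and the labels do not say whether a line was cloned or whether the arrays came from separate cultures, and the p-values therefore cover only array-to-array spread, possibly technical in origin. The titles add the word re-analysis for the 4 arrays of the null and α3 lines alone, so that each comparison for α3 lies within 1 set of arrays and in the comparisons for α9 the set and the subunit cannot be told apart.

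Epithelial cells hold together through classical cadherins, calcium-dependent adhesion proteins that bind the same cadherin on the next cell and link to actin through catenins. During an epithelial-mesenchymal transition, cells lower E-cadherin, often raise N-cadherin and vimentin, and express repressors of the SNAIL, ZEB and TWIST families, which bind E-box motifs in epithelial promoters. Keratinocytes use E- and P-cadherin for their adherens junctions, and basal keratinocytes express Snai2 as part of their normal state. Integrin α3β1 binds laminin-332 in the epidermal basement membrane, and α9β1 binds matrix proteins such as tenascin-C.

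Values are normalized intensities, obtained by giving the 8 arrays 1 common distribution (quantile normalization), and are comparable between arrays for a gene but not between genes. Differences are log2 changes of normalized intensity + 16 with their standard error (SE), a scale that compresses changes of dim transcripts. A gene passed where the adjusted p of limma, taken over all 23332 clusters of a comparison, was under 0.05. Overlap of arrays between lines is given only as a description. With 2 arrays a line, 49.1% to 65.9% of all clusters had no overlap, depending on the pair of lines. The deposited intensities had array medians from 82.8 to 127, both of these in the α3α9 line, and the number of arrays limits the precision. In total RNA of a culture, fewer cells of a type and less RNA per cell cannot be told apart. Of the 10 genes, 7 passed in at least 1 of the 4 comparisons between lines, against 31.5% of all clusters. All clusters include 7317 with no gene listed, so shares over them and shares of the 10 genes are of unlike sets. Cdh2 was higher with α3, Cdh13 higher with α9, and Ncam1 higher with either subunit. Vim and Zeb1 passed in none of the 5 comparisons, and neither did Cdh1.

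**Figure D1:**
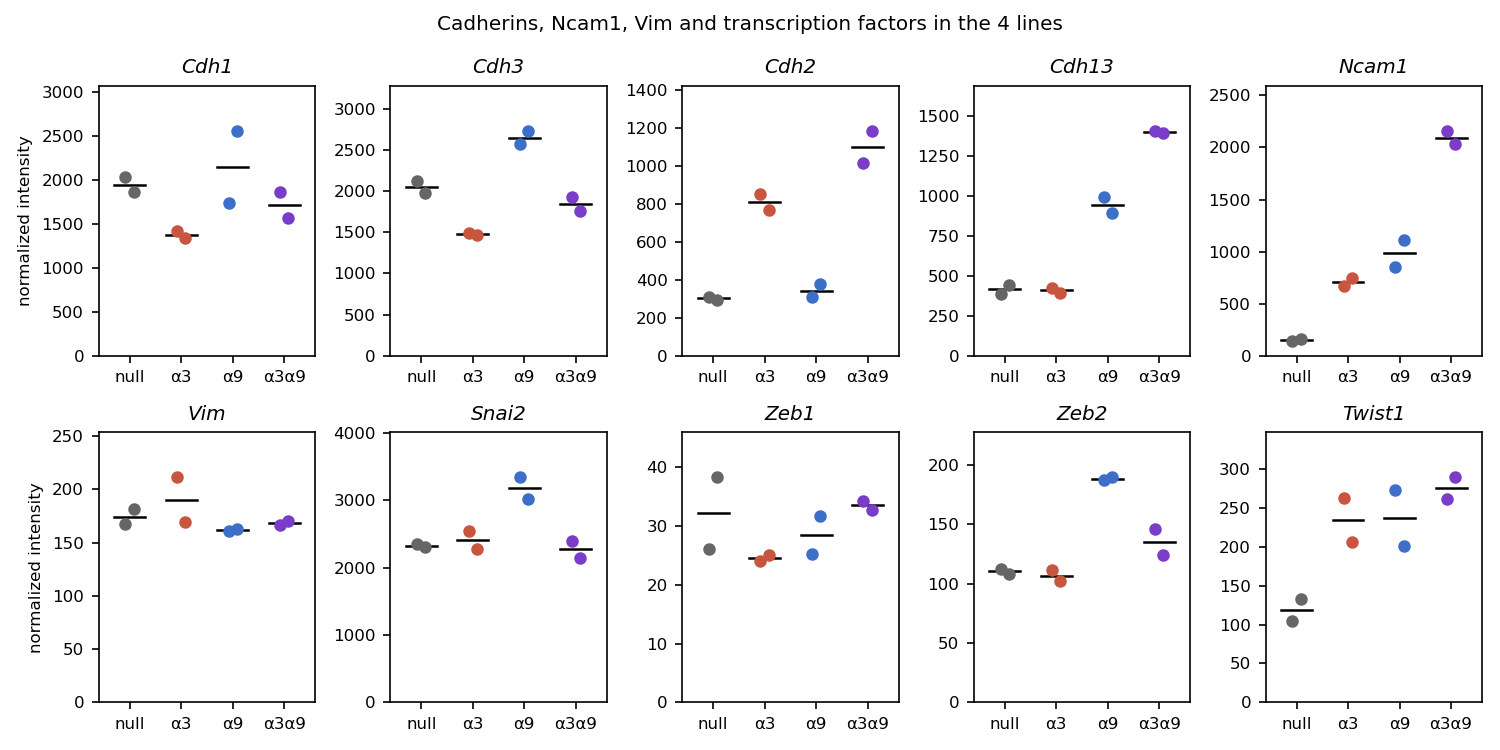
Normalized intensity of the 10 genes (y axes, linear from 0, each with its own scale) by line (x axes), with 1 point per array and a bar at the mean of 2. Cdh2 is high in both lines with α3, Cdh13 in both lines with α9, and Ncam1 lies at a mean of 155 for null and 2094 for α3α9 cells.

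Cdh2 encodes N-cadherin, the classical cadherin of neural and mesenchymal cells. The 2 null arrays gave 311 and 293, the α3 arrays 849 and 765, the α9 arrays 311 and 377 and the α3α9 arrays 1012 and 1183. Both lines with α3 lay above both lines without it, with no overlap of arrays, while the null and α9 arrays overlapped. Cdh2 rose with α3 when α9 was absent by a log2 change of 1.37 ± 0.14 (adjusted p = 0.0031), 2.59-fold on that scale. It rose with α3 in the presence of α9 by 1.63 ± 0.14 (adjusted p = 0.0015), which is 3.10-fold. The mean over the 2 arrays went from 302 ± 13.2 to 807 ± 59.3 without α9 and from 344 ± 46.6 to 1097 ± 121 with it (SD, n = 2 each). Those 2 comparisons share no array, and the difference between them was 0.26 ± 0.19 (adjusted p = 0.59) with a 95% interval of -0.20 to 0.72. With α9 the change of Cdh2 was 0.17 ± 0.14 (adjusted p = 0.45) in cells without α3 and 0.43 ± 0.14 (adjusted p = 0.073) in cells with it.

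Cdh13 encodes T-cadherin, an unusual cadherin that has no cytoplasmic tail and is held in the membrane by a lipid anchor. Its arrays gave 389 and 445 on the null arrays, 427 and 393 on the α3 arrays, 992 and 895 on the α9 arrays and 1407 and 1393 on the α3α9 arrays. The null and α3 arrays overlapped, and both α9-bearing lines were above them. Cdh13 rose with α9 by 1.15 ± 0.11 (adjusted p = 0.0027) in cells without α3, from 417 ± 39.4 to 944 ± 68.7, and by 1.73 ± 0.11 (adjusted p = 0.00075), 3.33-fold, in cells with α3, from 410.0 ± 23.9 to 1400.1 ± 9.82 (SD, n = 2 each). Between the α3α9 and α9 lines, which both carry α9, Cdh13 was higher with α3 by 0.56 ± 0.11 (adjusted p = 0.028), whereas the α3 and null lines differed by -0.02 (95% interval -0.29 to 0.25). The change with α3 in α9-bearing cells did not pass on the deposited scale (adjusted p = 0.45) nor without any 1 of the α3, α9 and α3α9 arrays (adjusted p 0.047 to 0.15 over the 8 arrays left out in turn). The difference of the changes with α3, 0.58 ± 0.16 (adjusted p = 0.17), did not pass.

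Cdh1 and Cdh3 encode E-cadherin and P-cadherin, the classical cadherins of the epidermis, and lie next to each other in gene order. Cdh3 gave 2124 and 1973 on the null arrays, 1492 and 1461 on the α3 arrays, 2565 and 2728 on the α9 arrays and 1932 and 1761 on the α3α9 arrays. No 2 lines next to each other in this order overlapped, with the α3 line lowest and the α9 line highest. Cdh3 fell with α3 by 0.47 ± 0.10 on the log2 scale in cells without α9 (adjusted p = 0.041) and by 0.52 ± 0.10 in cells with α9 (adjusted p = 0.026). The first of these calls did not pass without any 1 array other than α3α9 replicate 2 (adjusted p 0.048 to 0.20), the second without any 1 of the 8 (0.054 to 0.14), and neither passed on the deposited scale (0.50 and 0.27). With α9, Cdh3 differed by 0.37 ± 0.10 (adjusted p = 0.052) and 0.32 ± 0.10 (adjusted p = 0.074) in cells without and with α3.

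Cdh1 gave 2029 and 1856 on the null arrays, 1413 and 1343 on the α3 arrays, 1732 and 2553 on the α9 arrays and 1866 and 1570.4 on the α3α9 arrays. The α3 arrays were the lowest and overlapped with no other line, and the α9 arrays, which lay far apart, overlapped with the null and α3α9 arrays. The α3 comparisons gave -0.49 ± 0.19 (adjusted p = 0.18) and -0.29 ± 0.19 (adjusted p = 0.44), and the α9 comparisons 0.12 ± 0.19 (adjusted p = 0.74) and 0.31 ± 0.19 (adjusted p = 0.32). None of them passed, and the 95% interval of the change with α3 in cells without α9, which is not adjusted for the number of clusters, ran from -0.95 to -0.03.

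Ncam1 encodes the neural cell adhesion molecule, a member of the immunoglobulin superfamily. Its arrays gave 146 and 165 on the null arrays, 671 and 750.4 on the α3 arrays, 855 and 1111 on the α9 arrays and 2157 and 2031 on the α3α9 arrays. The arrays of no 2 lines overlapped, and the highest line mean was 13.5 times the lowest. Ncam1 rose in each of the 4 comparisons, by 2.09 ± 0.15 (adjusted p = 0.00093) with α3 alone, 2.53 ± 0.15 (adjusted p = 0.00073) with α9 alone, 1.09 ± 0.15 (adjusted p = 0.0083) when α3 joined α9, and 1.54 ± 0.15 (adjusted p = 0.0023) when α9 joined α3. Those changes correspond to 4.24-, 5.80-, 2.13- and 2.91-fold on that scale. In means, the null line had 155 ± 13.4, the α3 line 711 ± 56.4, the α9 line 983 ± 180.4 and the α3α9 line 2094 ± 89.0 (SD, n = 2 each). The change with α3 was smaller in cells with α9 by 1.00 ± 0.21 on the log2 scale, which did not pass (adjusted p = 0.11). The 4 calls held on the deposited scale and without any 1 array, except that the change when α3 joined α9 did not pass with only those 2 lines in the fit (adjusted p = 0.063).

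Vim encodes vimentin, the intermediate filament protein of mesenchymal cells. It gave 167 and 182 on the null arrays, 211 and 169 on the α3 arrays, 161 and 163 on the α9 arrays and 166 and 171 on the α3α9 arrays. The α9 arrays were the lowest and overlapped with no other line, and the null, α3 and α3α9 arrays overlapped in part. The 4 changes ran from -0.15 to 0.11, with 95% intervals that reached from -0.45 to 0.40, and adjusted p between 0.44 and 0.86. Vim therefore passed in no comparison between lines, which does not show that its levels were equal. Of 7 measured genes for partner or related filament proteins, none passed in any of the 5 comparisons in limma.

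**Figure D2:**
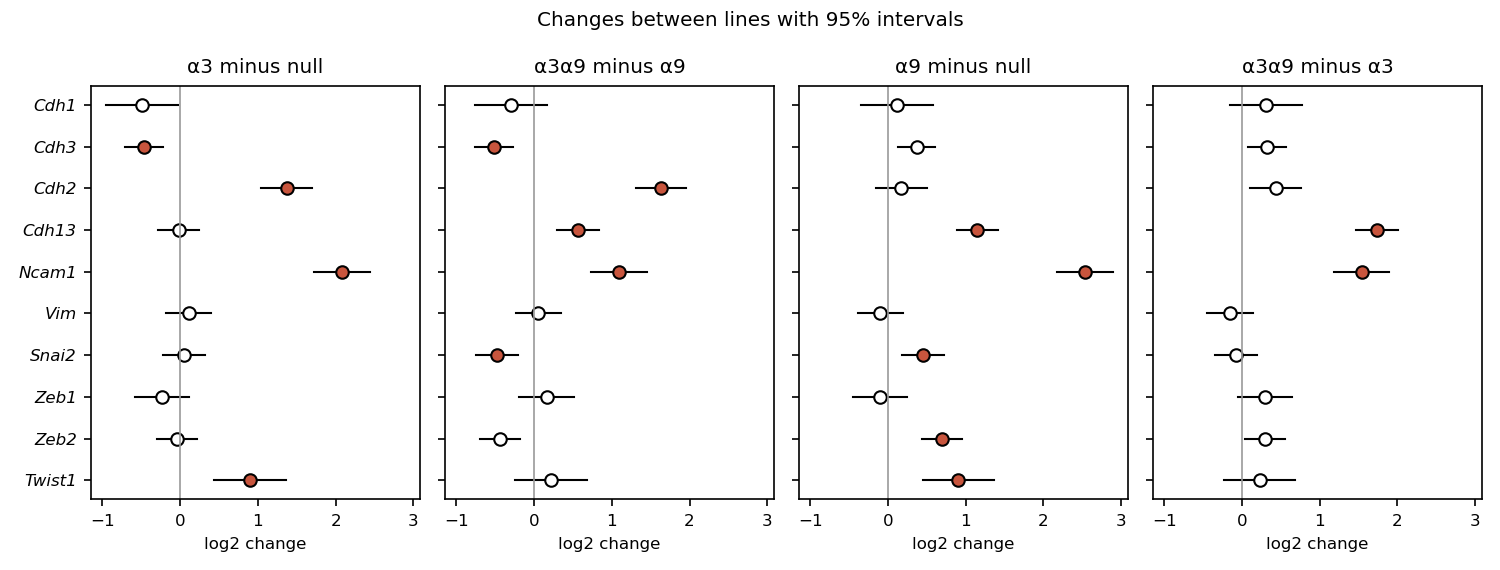
Log2 changes of the 10 genes (y axis) in the 4 comparisons between lines (panels), with bars for the 95% interval from limma and filled points for adjusted p under 0.05. Ncam1 is filled in every panel, Cdh2 in both panels for α3, Cdh13 in both for α9, and Vim, Zeb1 and Cdh1 in none.

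Among the transcription factors, Twist1, a basic helix-loop-helix protein of mesoderm and neural crest, had its lowest values in the null line. It gave 104 and 133 there, 263 and 206 in the α3 line, 272 and 201 in the α9 line and 262 and 289 in the α3α9 line. The null arrays overlapped with no other line, the α9 arrays overlapped with those of the α3 and α3α9 lines, and the lines with 1 subunit had arrays wide apart. Twist1 rose by 0.90 ± 0.19 (adjusted p = 0.040) with α3 alone and by 0.90 ± 0.19 (adjusted p = 0.024) with α9 alone, and it differed by 0.22 ± 0.19 (adjusted p = 0.58) and 0.23 ± 0.19 (adjusted p = 0.47) when the second subunit was added. Neither rise passed on the deposited scale (adjusted p = 0.25 and 0.096). The rise with α3 did not pass without any 1 of the null, α3 and α3α9 arrays (0.046 to 0.19), and the rise with α9 without either null array or α9 replicate 1 (0.035 to 0.13).

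Zeb2, a zinc-finger homeobox repressor, gave 112 and 108 on the null arrays, 111 and 103 on the α3 arrays, 187 and 189 on the α9 arrays and 146 and 124 on the α3α9 arrays. The α9 arrays were the highest, the α3α9 arrays came between, and the null and α3 arrays overlapped. Zeb2 rose with α9 in cells without α3 by 0.70 ± 0.11 (adjusted p = 0.0087), 1.62-fold, and differed by 0.29 ± 0.11 (adjusted p = 0.11) in cells with α3. That rise did not pass on the deposited scale (adjusted p = 0.065), nor without either null array or α9 replicate 2 (0.010 to 0.059 over the arrays left out). With α3 it differed by -0.04 ± 0.11 (adjusted p = 0.86) in cells without α9 and by -0.44 ± 0.11 (adjusted p = 0.052) in cells with it.

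Snai2, which encodes SLUG, a zinc-finger repressor that keratinocytes express at rest and in wound repair, gave 2343 and 2301 on the null arrays, 2537 and 2278 on the α3 arrays, 3337 and 3023 on the α9 arrays and 2402 and 2147 on the α3α9 arrays. The α9 line was apart from and above the others, which overlapped in order. Snai2 was higher with α9 in cells without α3 by 0.45 ± 0.11 (adjusted p = 0.040) and lower with α3 in cells with α9 by a change of -0.48 ± 0.11 (adjusted p = 0.045). Both calls were lost on the deposited scale (adjusted p = 0.12 and 0.33). The first was also lost without any 1 of the null, α3 and α9 arrays (0.042 to 0.16), and the second without any 1 of the 8 (0.070 to 0.17).

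Zeb1, the other ZEB repressor, lay close to the added 16: its arrays ran from 24.0 to 38.2. The 4 changes of Zeb1 lay between -0.24 and 0.29 (adjusted p 0.22 to 0.67), at a level where the added 16 shrinks any change.

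The SNAIL and ZEB repressors bind the E-box CAGGTG, and TWIST1 binds E-boxes of the general form CANNTG. The RefSeq promoter table (GRCm38.p6) held 6 windows for 3 of the 10 genes, Vim, Zeb2 and Twist1. The 250 bases before a start are shown for Twist1 and for the first Zeb2 start in the table, because these 2 genes were both higher in the α9 line than in the null line. The Twist1 window is chr12:33957421-33957670 on the plus strand and the Zeb2 window is chr2:45117443-45117692 on the minus strand, and both are written 5′ to 3′ on the gene's strand. All letters are lower case because neither motif was found.
Twist1: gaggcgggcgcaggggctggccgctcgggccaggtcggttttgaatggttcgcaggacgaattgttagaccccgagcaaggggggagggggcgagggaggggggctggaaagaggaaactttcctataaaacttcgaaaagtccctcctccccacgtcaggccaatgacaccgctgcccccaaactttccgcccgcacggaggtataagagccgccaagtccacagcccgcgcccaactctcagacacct
Zeb2: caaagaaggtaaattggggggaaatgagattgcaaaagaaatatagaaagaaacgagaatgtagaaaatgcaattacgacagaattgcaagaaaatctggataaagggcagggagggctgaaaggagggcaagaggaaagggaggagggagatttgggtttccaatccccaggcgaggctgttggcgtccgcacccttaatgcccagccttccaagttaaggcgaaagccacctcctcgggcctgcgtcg
On both strands, CAGGTG was in none of the 6 windows, against 17.2% of the 32851 windows of 250 bases in the table, and CANNTG, which includes CAGGTG, was in none against 66.2%. Of the 4 Zeb2 windows, 2 overlap each other. The count says only that these letters are not in these windows.

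Counted by comparison, 3 of the 10 genes were higher with α3 in cells without α9 (Cdh2, Twist1 and Ncam1), against 4.46% of all clusters, and 1 was lower (Cdh3), against 3.75%. With α3 in cells with α9, 3 were higher (Cdh2, Cdh13 and Ncam1), against 5.67%, and 2 were lower (Cdh3 and Snai2), against 4.29%. With α9 in cells without α3, 5 were higher (Cdh13, Snai2, Zeb2, Twist1 and Ncam1), against 8.84%, and 0 were lower, against 8.3%. With α9 in cells with α3, 2 were higher (Cdh13 and Ncam1), against 10.1%, and 0 were lower, against 8.75%. In the interaction, the change with α3 in α9-bearing cells minus that in the others, 0 passed in limma against 0.737% of clusters. There 5 of the 10 had an unadjusted p under 0.05, against 3668 of the 23332 clusters. The median change of the 10 genes was 0.01, 0.11, 0.41 and 0.30 in the 4 comparisons, against -0.04, -0.01, 0.00 and 0.04 over all clusters. With only 1-gene clusters in the fit, 2754, 2957, 4215 and 4465 of 14996 clusters passed in either direction. In that fit 4, 6, 6 and 4 of the 10 genes did. The genes were chosen with earlier results of these arrays known, so these shares describe the list and do not test it. On the deposited scale each comparison kept 2 calls, all higher: Cdh2 and Ncam1 with α3, and Cdh13 and Ncam1 with α9.

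For this list and those that follow, the shares of all clusters given above apply. They were 4.46% higher and 3.75% lower with α3 in cells without α9, and 5.67% and 4.29% in cells with it. With α9 they were 8.84% and 8.3% in cells without α3, and 10.1% and 8.75% in cells with it. Of 22 measured other cadherins, 15 lay under the median of all clusters (102.5) on every array, where the added 16 compresses changes. With α3, 1 of the 22 passed in each comparison. It was Cdh6, which encodes the type II K-cadherin and had a mean of 71.5 for null, 34.3 for α3, 122 for α9 and 33.4 for α3α9 cells. Cdh6 fell with α3, with a change of -1.48 ± 0.14 (adjusted p = 0.0025) in cells with α9 and -0.79 ± 0.14 (adjusted p = 0.024) in cells without it. The first held without any 1 array and on the deposited scale. The second did not pass on the deposited scale (adjusted p = 0.21) or when any 1 of the 4 arrays compared was left out (0.028 to 0.14). Cdh6 was higher with α9 in cells without α3 (0.65 ± 0.14, adjusted p = 0.026), a call that was lost on the deposited scale (adjusted p = 0.083). In cells with α3 Clstn1, a calsyntenin, was the 1 cadherin relative that rose with α9 (0.59 ± 0.12, adjusted p = 0.018). That call was lost on the deposited scale too.

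Of 20 measured catenin and adherens junction genes, 2 rose and 1 fell with α3 in cells without α9, and 2 rose and 2 fell in cells with it, with list medians of -0.05 and -0.08. Nectin3, an immunoglobulin-like adhesion protein of adherens junctions, rose in both, from 239 ± 5.92 to 706 ± 107 (1.49 ± 0.16, adjusted p = 0.0039) and from 179 ± 28.6 to 318 ± 33.2 (0.78 ± 0.16, adjusted p = 0.028). Jup, plakoglobin, which links cadherins to filaments, fell in cells with α9 (-0.52 ± 0.10, adjusted p = 0.025), and so did Ctnnal1, an α-catenin relative (-0.77 ± 0.13, adjusted p = 0.018). Vcl, vinculin, fell with α3 alone (-0.55 ± 0.12, adjusted p = 0.038), and Nectin4 rose (0.65 ± 0.09, adjusted p = 0.012). With α9 in cells without α3, 6 rose and 0 fell, led by Camsap3, a binder of microtubule minus ends (1.23 ± 0.14, adjusted p = 0.0037), and in cells with α3 6 rose and 2 fell, led by Camsap3 (1.38 ± 0.14, adjusted p = 0.0026). In the deposited values the α3 counts were 1 (Nectin3) and 0 higher and 0 lower, and the α9 counts 2 and 2 higher and 0 lower.

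Regulators of epithelial identity that passed with α3 were lower in all but 1 case. Of all clusters, 3.75% and 4.29% were lower with α3 in cells without and with α9, over medians of -0.04 and -0.01. Of 17 measured epithelial regulators, 4 fell and 0 rose in cells without α9, over a list median of -0.34. They were Elf3 (-0.86), an ETS factor of epithelia, Ovol1 (-0.77), a zinc-finger repressor of mesenchymal genes, Grhl1 (-0.65), a grainyhead factor, and Trp63 (-0.58), the p63 gene of stratified epithelia. In cells with α9, 6 fell and 1 rose, over a median of -0.38, with Klf4, a differentiation factor, going from 1521 ± 149 to 799.6 ± 35.3 (-0.91 ± 0.11, adjusted p = 0.0059), Ehf at -0.79, Elf3 at -0.79 and Ovol1 at -0.79. The 1 that rose was Tfap2c (0.79 ± 0.11, adjusted p = 0.0094), named after its value was seen. None of these changes passed on the deposited scale, and with single arrays left out the number that fell ran from 0 to 4 and from 1 to 5. With α9, 7 rose and 2 fell in cells without α3, among them Ehf (1.02 ± 0.14, adjusted p = 0.0059) and Klf4 (0.92 ± 0.11, adjusted p = 0.0046), and 7 rose and 2 fell in cells with α3, led by Grhl1 (1.12 ± 0.14, adjusted p = 0.0044). The 2 that fell in each were Trp63 and Foxa1, of which Foxa1 was named after its value was seen. On the deposited scale 5 and 2 rose with α9 and 0 and 0 fell.

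**Figure D3:**
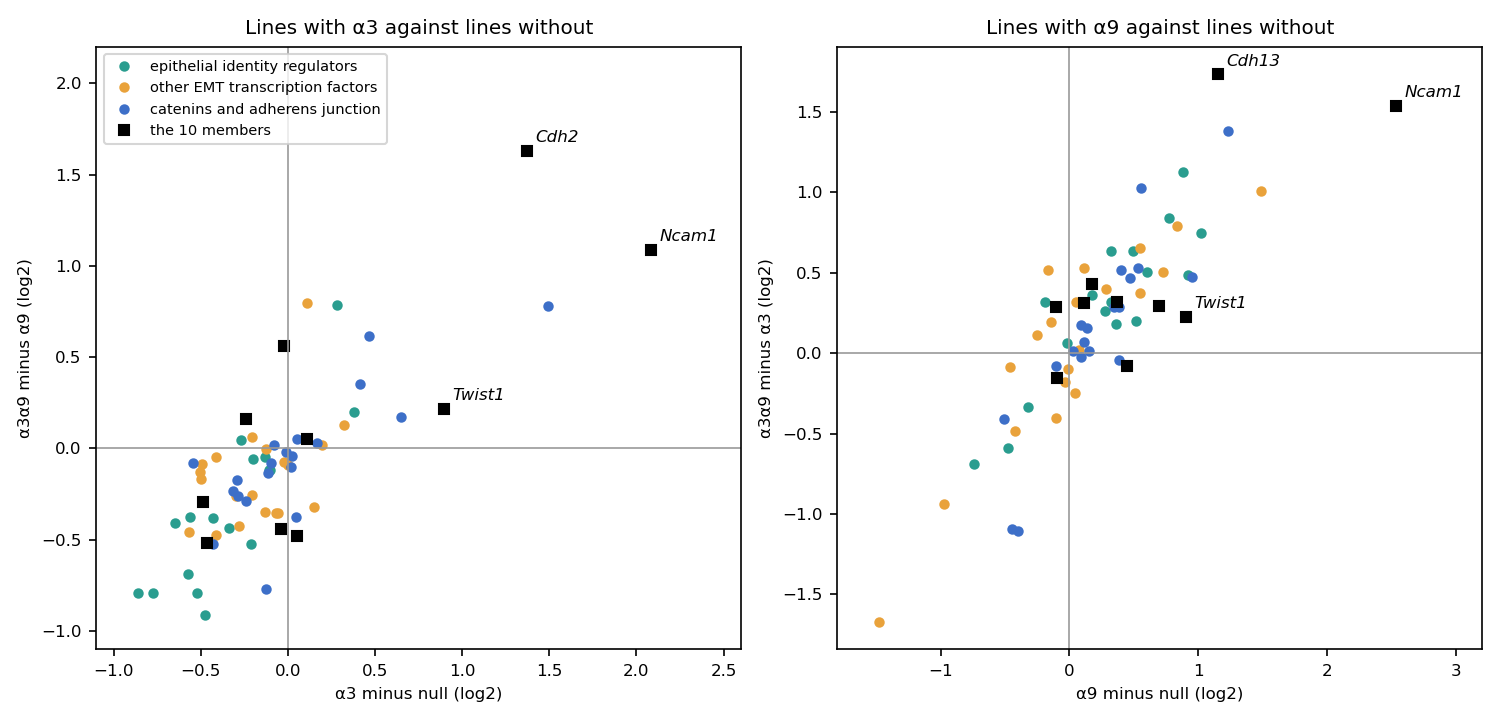
Log2 changes of the 10 genes (black squares) and of 3 related lists (coloured points), with α3 in cells without α9 (x axis) against α3 in cells with α9 (y axis) on the left, and with α9 in cells without α3 (x axis) against α9 in cells with α3 (y axis) on the right. The comparisons on the 2 axes of a panel share no array, Cdh2 and Ncam1 lie at the upper right of the left panel, and Cdh13 and Ncam1 at the upper right of the right one.

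Of 20 measured other transcription factors of the transition, 0 rose and 2 fell with α3 in cells without α9, the factors Foxc1 (-0.57 ± 0.13, adjusted p = 0.049) and Tcf3 (-0.51 ± 0.11, adjusted p = 0.040), and 1 rose and 1 fell in cells with it, Sox4 (0.80 ± 0.13, adjusted p = 0.014) and Id3 (-0.47 ± 0.11, adjusted p = 0.048). Neither Foxc1 nor Tcf3 passed without any 1 of the 8 arrays, and on the deposited scale none of the 4 passed. More members passed with α9, 5 higher and 4 lower in cells without α3 and 7 higher and 3 lower in cells with it, in comparisons where 8.84% and 10.1% of all clusters were higher. In the deposited values 3 were higher and 1 lower in cells without α3, and 1 higher and 1 lower in cells with it. Id1, an inhibitor of helix-loop-helix factors and a target of BMP signalling, went from 582 ± 41.5 to 199.6 ± 36.9 (-1.48 ± 0.15, adjusted p = 0.0028) and from 730.4 ± 58.9 to 218 ± 15.5 (-1.67 ± 0.15, adjusted p = 0.0017). Its relative Id4 changed by -0.97 and -0.94 (adjusted p = 0.0087 and 0.0093), and the forkhead factor Foxc2 by 1.48 and 1.01 (adjusted p = 0.0046 and 0.013). Both changes of Id1, and that of Foxc2 in cells without α3, held without any 1 array and on the deposited scale. Those of Id4 did not hold on the deposited scale (adjusted p = 0.16 and 0.18).

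Of 30 measured mesenchymal markers, 1 rose and 2 fell with α3 in cells without α9, against 4.46% and 3.75% of all clusters. In cells with α9, 1 rose and 1 fell, against 5.67% and 4.29%, so these counts lay near the shares of all clusters. The 1 that rose in both was Sparc, a matricellular protein, with changes of 3.25 and 2.47 (adjusted p = 6.2e-05 and 0.00021). Nt5e, an ecto-nucleotidase, fell in both, most in cells with α9, from 3169 ± 143 to 706 ± 59.9 (-2.14 ± 0.12, adjusted p = 0.00036), and Acta2, smooth muscle actin, fell in cells without α9 (-0.65 ± 0.14, adjusted p = 0.040). The collagen genes Col1a1, Col1a2 and Col3a1, named after their values were seen as was fibronectin, gave changes of -0.29, -0.14 and -0.38 with α3 in cells without α9, and fibronectin (Fn1) one of 0.26, with adjusted p of 0.27, 0.45, 0.079 and 0.18. With α9, 5 rose and 2 fell in cells without α3, and 5 and 2 did in cells with it. Axl, a receptor kinase, rose by 0.78 and 0.75, and S100a4, a calcium-binding protein, changed by -1.16 and -1.37. In the deposited values 2 rose and 0 fell with α9 in cells without α3, and 0 and 0 did in cells with it, where Axl had an adjusted p of 0.061. List medians stayed between -0.08 and 0.12 in the 4 comparisons. Of the 30 genes, 17 lay under the median of all clusters (102.5) on every array, and the added 16 compresses changes of dim genes. The list medians therefore do not show that these genes were unchanged. In the deposited values the falls of Nt5e without α9 and of Acta2 did not pass (adjusted p = 0.46 and 0.46), nor did the changes of S100a4 (0.12 and 0.050).

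Of 24 measured epithelial markers, 4 rose and 1 fell with α3 in cells without α9 and 3 rose and 2 fell in cells with it. Cldn3, a tight junction claudin, rose from 335 ± 13.3 to 2139 ± 80.0 (2.62 ± 0.11, adjusted p = 0.00011) and from 522 ± 21.9 to 1588 ± 159 (1.57 ± 0.11, adjusted p = 0.00071), and Krt19, a keratin of simple epithelia, by 2.64 and 3.27. Cldn1, the main claudin of epidermis, fell by 0.51 and 0.44 on the log2 scale, calls that were lost on the deposited scale (adjusted p = 0.47 and 0.38). The rises of Cldn3 and Krt19 held there and without any 1 array. With α9, 6 and 5 rose and 0 and 1 fell, led by the membrane protease Prss8 (1.30 ± 0.13, adjusted p = 0.0029 and 0.81 ± 0.13, adjusted p = 0.0095) and its inhibitor-family member Spint1 (1.06 ± 0.10, adjusted p = 0.0023 and 0.71 ± 0.10, adjusted p = 0.0056). In the deposited values 3 and 1 rose and 0 and 0 fell with α9.

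Of 11 genes for relatives and partners of NCAM, 3 fell and 0 rose with α3 in cells without α9 (Fgfr2, Chl1 and Cntn1), and 1 fell in cells with it (Fgfr2). In the deposited values Fgfr2 alone passed in both. Fgfr2 encodes a fibroblast growth factor receptor whose epithelial splice form these values do not separate from the mesenchymal one. It fell from 282 ± 26.0 to 54.7 ± 7.98 without α9 (-2.08 ± 0.12, adjusted p = 0.00046) and from 649.8 ± 39.9 to 243 ± 9.62 with it (-1.36 ± 0.12, adjusted p = 0.0021). It rose with α9, by 1.16 in cells without α3 and 1.88 in cells with it (adjusted p = 0.0034 and 0.00080), and these 4 calls held without any 1 array and on the deposited scale. Fgfr1, named after its values were seen, changed by -0.16 and 0.09 with α3 (adjusted p = 0.35 and 0.65). L1cam and Cntn1, neural adhesion proteins, rose with α9 in cells with α3 (1.10 ± 0.11, adjusted p = 0.0026 and 1.03 ± 0.13, adjusted p = 0.0041). The polysialyltransferases St8sia2 and St8sia4, which modify NCAM, had changes from -0.26 to 0.14 in the 4 comparisons, and none passed.

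Of 12 measured corepressors of SNAIL and ZEB proteins, 1 fell and 0 rose with α3 in cells without α9 (Sin3a, -0.55 ± 0.10, adjusted p = 0.029), and 2 fell and 0 rose in cells with it, the histone demethylase Kdm1a (-0.42 ± 0.09, adjusted p = 0.030) and the methyltransferase Ezh2 (-0.41 ± 0.09, adjusted p = 0.040). With α9, 1 rose and 1 fell in cells without α3, and 3 and 1 did in cells with it. On the deposited scale 0 of these passed with α3 in limma, and 0 with α9. Of 11 genes of cadherin shedding and turnover, 1 rose and 1 fell with α3 in cells without α9, the stromelysin Mmp3 (2.58 ± 0.22, adjusted p = 0.0016) and Cbll1, which encodes the Hakai ubiquitin ligase of E-cadherin (-0.48 ± 0.10, adjusted p = 0.036, and 0.71 on the deposited scale). With α3 in cells with α9 the kinase gene Src fell (-0.66 ± 0.10, adjusted p = 0.012, and 0.21 on the deposited scale). With α9, Adam15 rose in cells without α3 (0.63 ± 0.10, adjusted p = 0.0088, and 0.070 on the deposited scale). In cells with α3, Adam10, a sheddase of E- and N-cadherin, rose with α9 (0.41 ± 0.09, adjusted p = 0.025, and 0.21 on the deposited scale). Mmp3 fell there (-2.64 ± 0.22, adjusted p = 0.0015). On the deposited scale 1 gene of this list was lower and 0 were higher in that comparison.

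Few of the calls named for the related lists held without each of the 8 arrays in turn. With α3 in cells without α9 these were 6 of 24, Nectin3, Krt19, Cldn3, Sparc, Fgfr2 and Mmp3, which also passed on the deposited scale. With α3 in cells with α9 they were 7 of 23, Cdh6, Klf4, Krt19, Cldn3, Sparc, Nt5e and Fgfr2, of which Klf4 did not pass on the deposited scale (adjusted p = 0.058). With α9 in cells without α3 they were 11 of 32, among them Nectin4, Camsap3, Foxc2, Id1, Klf4, Ehf, Prss8, Spint1, Nt5e and Fgfr2, and with α9 in cells with α3 they were 12 of 36, among them Vcl, Camsap3, Id1, Grhl1, Fgfr2, L1cam, Cntn1 and Mmp3. Of the 10 genes themselves, 2 held in each of the 4 comparisons.

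Place in the genome was described by the 10 measured genes on each side of a member in RefSeq gene order, a step added after the data were seen. Cdh2 rose more with α3 than any of its 20 neighbours. Their median changes with α3 were -0.10 and -0.04, with 1 and 2 higher and 2 and 2 lower. The gene next to Cdh2 on one side, the desmosomal cadherin Dsc3, changed by -2.83 and -2.58, opposite in sign to Cdh2. The 20 neighbours of Cdh13 had medians of 0.04 and 0.16 with α9, with 0 and 2 higher and 2 and 3 lower.

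Around Cdh3 and Ncam1, the neighbours that passed with α3 all changed in the direction of the member. Calls in 1 direction were not particular to these 2. Neighbours of Cdh13 had 0 and 0 higher and 4 and 3 lower with α3, while Cdh13 changed by -0.02 and 0.56. Those of Zeb1, which did not pass, had 2 and 4 higher and 0 and 0 lower. Of all clusters, 4.46% and 5.67% were higher and 3.75% and 4.29% lower with α3. Of the 20 neighbours of Cdh3, 6 fell and 0 rose with α3 in cells without α9, over a median of -0.28, and 3 fell and 0 rose in cells with α9, over a median of -0.08. Sntb2 fell in both (-0.57 and -0.65) and Nfatc3 in cells without α9 (-0.98), while Cdh1, which is 1 of the 20, did not pass. Of the 20 neighbours of Ncam1, 6 rose and 0 fell with α3 in cells without α9 and 5 rose and 0 fell in cells with it, among them Nnmt (2.16 and 1.22), Pts (0.91 and 0.75) and Ankk1 (0.78 and 0.86). With α9 the same window had 0 higher and 5 lower in cells without α3, and 1 higher and 6 lower in cells with it, while Ncam1 rose in both. The part of gene neighbourhoods in the changes of Cdh2, Cdh13, Cdh3 and Ncam1 was not tested.

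**Figure D4:**
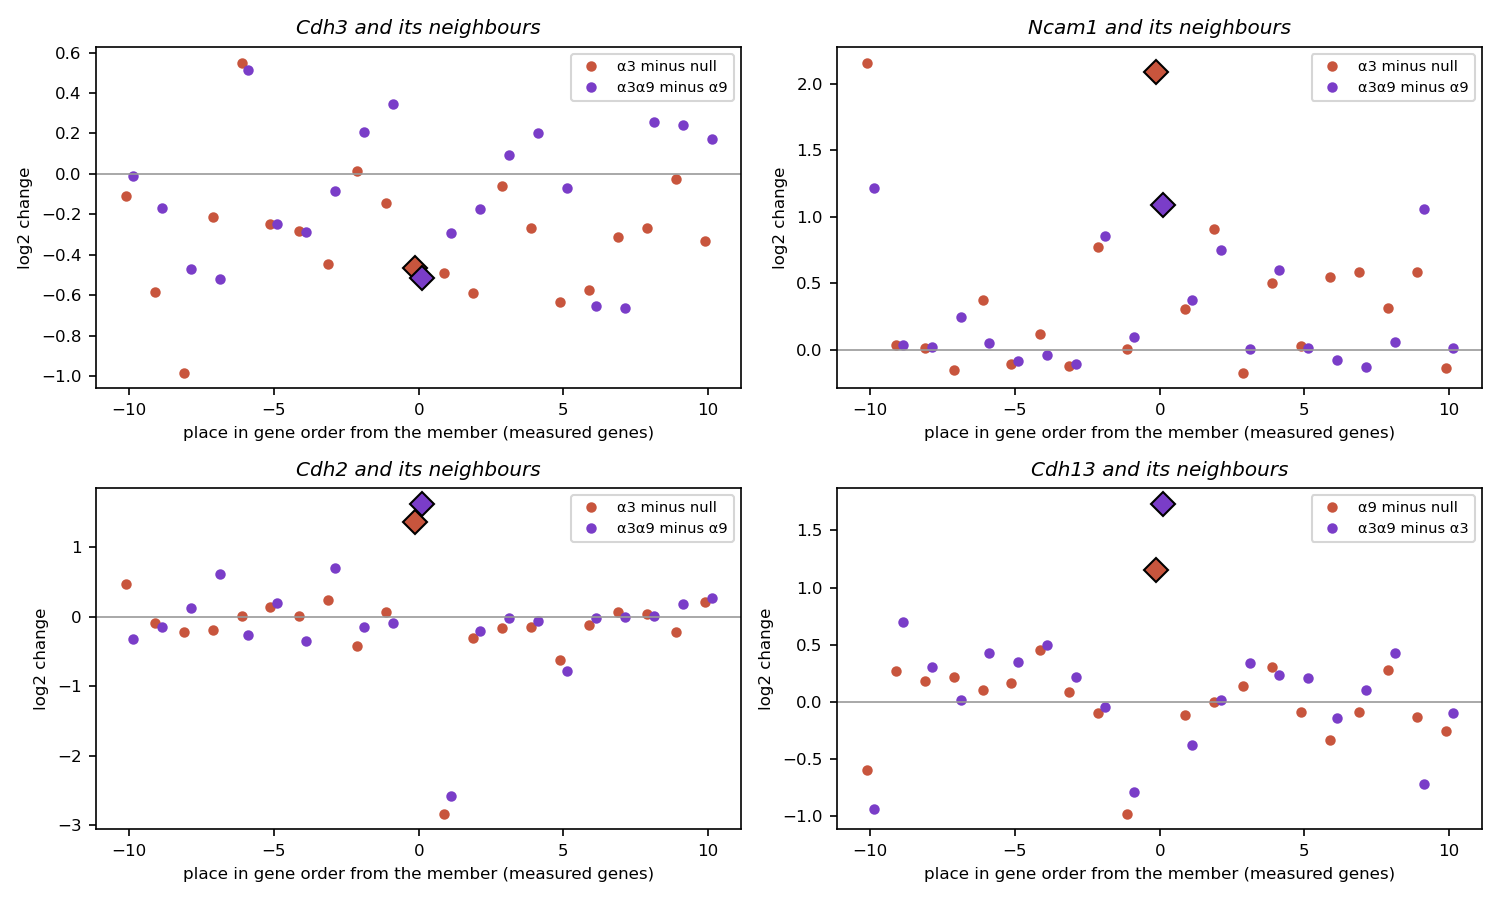
Log2 change (y axes) of a member (diamonds at 0) and of the 10 measured genes on each side in gene order (x axes, place counted from the member), for Cdh3, Ncam1 and Cdh2 with α3 and for Cdh13 with α9, with 1 colour per comparison. Cdh2 and Cdh13 lie above all their neighbours, Nnmt, 10 places from Ncam1, is as high as Ncam1, and the neighbours of Cdh3 lie on both sides of 0.

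Genes most like each member were taken by Pearson's r of log2 values over the 8 arrays, as a description, with the points sharing 4 lines. For Cdh2 they were Acp5 (0.991), Cd55 (0.990) and Susd4 (0.988), for Cdh13 Naaa (0.994), Lancl1 (0.993) and Ctbp1 (0.993), and for Ncam1 Wbp1 (0.996), Zmat3 (0.992) and Tulp4 (0.991). For Cdh3 they were Sbno2 (0.996), Rexo1 (0.990) and Ssh1 (0.990), for Twist1 M1ap (0.987), Pacc1 (0.976) and Vtcn1 (0.968), for Zeb2 Rnf185 (0.989), Gpc4 (0.984) and Mt1 (0.983), and for Snai2 Otub2 (0.965), Adm2 (0.964) and Nup54 (0.956). No member was among the 3 most like another member. With 3 places among 8723 candidates, from which Zeb1 was left out as too dim, this does not show that members varied apart.

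The labelled cell type was checked with 10 keratinocyte markers. They were all measured, and their summed intensity ran from 52074 to 61829 over the 8 arrays. Such a sum is weighted to the brightest genes, among them Krt5, which reached 14773. With α3, 3 of the 10 fell in each comparison, Trp63, which is also among the epithelial regulators, Itga6 and Dsg3, and 0 rose, and the summed level was 57695 to 58762 on null, 52074 to 54168 on α3, 61042 to 61829 on α9 and 52475 to 53687 on α3α9 arrays. None of these falls passed on the deposited scale. With α9, Trp63 fell in cells without α3, and in cells with α3 Krt15 rose and Trp63 and Sfn fell. On the deposited scale these did not pass either. Of 8 fibroblast markers 0 passed with α3. Their summed level was 800.4 to 840.3, 694 to 695, 757 to 831 and 660.2 to 774 in the same order, lower in the α3 line than in the null line. Of 4 Schwann and neural crest markers 0 passed with α3, with sums of 974 to 985, 758 to 901, 976 to 1218 and 948 to 979. No melanocyte, endothelial, leukocyte or muscle marker passed with α3. No marker of any list was under 16 on all arrays, but 16 is the added value and not a limit of detection. Under the median of all clusters (102.5) on every array were 0 of 10 keratinocyte and 4 of 8 fibroblast markers. So were 6 of 7 melanocyte, 7 of 7 endothelial, 4 of 6 leukocyte, 1 of 4 Schwann and neural crest, 1 of 3 Merkel cell and 2 of 4 muscle markers. Since levels of different genes cannot be ranked here, these values do not settle which cell types were present. Of 3 Merkel cell markers, 1 passed with α3: Sox2 changed by -1.39 ± 0.31 (adjusted p = 0.040) in cells with α9 and by -1.15 ± 0.31 (adjusted p = 0.075) in cells without it. With α9, 1 fibroblast marker (Dcn, 0.43), 1 leukocyte marker (Cd68, 0.91), 1 neural marker (Mbp, 0.88) and 1 Merkel cell marker (Isl1, -0.49) passed in cells without α3. In cells with α3, Csf1r (0.56) and Mbp (0.59) passed among the markers of other cell types. Among these lists, 1 leukocyte and 1 neural marker passed in the deposited values with α9 in cells without α3, none with α9 in cells with α3, and none with α3. The part of these markers in the changes of the 10 genes was not tested.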

How the data were processed

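Per the submitters' processing notes, the authors made the deposited intensities with Affymetrix Expression Console and PLIER, and the design text mentions the Exon Array Computational Tool too. What the versions, genome build and filters were is not given in the sources used here. Each of 23332 transcript clusters has 1 linear intensity per array. Arrays within a line differed in median, most in the α3α9 line (82.8 and 127), so arrays were quantile-normalized with limma 3.58.1 in R 4.3.3, where an earlier treatment used the deposited scale, kept here as an alternative. The spread within the α3α9 line fell from 0.42 to 0.26 log2 units (root mean square SD). Then log2(normalized intensity + 16) was fitted with lmFit and eBayes to the 8 arrays, 1 mean for each line (4 residual degrees of freedom) and 5 contrasts, with Benjamini-Hochberg adjustment over all clusters. The fit was tested on simulated data.

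Samples were grouped by title. No 2 arrays shared more than 1 identical values. Gene names came from the platform annotation, updated by Entrez number to RefSeq GRCm38.p6 symbols: 14996 clusters had 1 gene, 1019 several and 7317 none listed. Where a gene had several clusters, the one with the highest mean was used. The 10 genes and the lists were chosen with earlier results of these arrays known. Named beside the members are up to 4 genes of each list that passed in an α3 comparison and up to 3 in the others, by size of change, and the 3 most like each member that passed, among 8723 genes with a mean above the median. Alternatives were the deposited scale, median centring, pseudocounts of 1 and 64, a filter on the lowest 25%, a trended robust variance, the 2 lines alone, a replicate block and each array left out.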

Additional observations from a re-analysis of the deposited data

Results flagged for a closer look

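None of the 10 genes passed the interaction test of limma, which asks whether a change with α3 differs between cells with and without α9. Of the related genes named, 3 passed it. Cldn3 rose in both settings, and its change was smaller in cells with α9 by an interaction of -1.05 ± 0.15 (adjusted p = 0.048). Nt5e fell in both, with an interaction of -1.60 ± 0.17 (adjusted p = 0.019). Mmp3 gave 47.1 and 49.9 on the null arrays, 369.6 and 368 on the α3 arrays, 37.7 and 38.3 on the α9 arrays and 63.3 and 32.2 on the α3α9 arrays, an interaction of -2.38 ± 0.31 (adjusted p = 0.032). On the deposited scale only the last of these passed (adjusted p = 0.015, against 0.45 for Cldn3 and 0.16 for Nt5e), and the adjusted p over the 8 arrays left out in turn was 0.015 to 0.15 for Mmp3, 0.078 to 0.19 for Cldn3 and 0.048 to 0.11 for Nt5e.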

How the results depend on the processing

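Cdh2 with α3, Cdh13 with α9 and Ncam1 with α9 passed under every alternative tried, and Ncam1 with α3 under all but 1. No call changed sign. The comparisons are given as α3 without α9, α3 with α9, α9 without α3, α9 with α3, and the interaction, with 1915, 2325, 3999, 4389 and 172 clusters past the threshold and 4, 5, 5, 2 and 0 of the 10 genes. On the deposited scale the clusters were 303, 436, 1009, 765 and 20, split into 221 and 82, 244 and 192, 817 and 192, 499 and 266, and 3 and 17 higher and lower against 1041 and 874, 1323 and 1002, 2062 and 1937, 2347 and 2042, and 72 and 100, and the genes 2, 2, 2 and 2. Centring on array medians left 2 and 3 genes with α3. With only the 2 lines compared the clusters were 949, 455, 2927 and 2034 and the genes 2, 1, 3 and 2. A pseudocount of 64 gave 2990 clusters with α3 without α9, 586 in the interaction and 4 genes with α9 in cells with α3, and a pseudocount of 1 gave 83 in the interaction and 2 genes with α3 without α9. Leaving out the lowest 25% of clusters, a trended and robust variance, and clusters with 1 gene (added after seeing the data) gave 416, 490 and 609 clusters in the interaction and 4 genes each with α9 in cells with α3, where Cdh2 and Cdh3 also passed. With 1-gene clusters 1 gene, Ncam1, passed in the interaction. The cause of these shifts was not tested. Zeb1 has no value once the lowest 25% are left out, and the interaction none with 2 lines. Without single arrays, where the line left with 1 array is assumed to vary like the others, the clusters ranged over 381 to 1705, 687 to 1569, 1278 to 4119, 1369 to 3910 and 8 to 116, and the genes over 2 to 3, 2 to 3, 2 to 5, 2 to 2 and 0 to 0.

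The replicate numbers do not pair the arrays by any label. Deviations of same-numbered arrays correlated across clusters between -0.19 and 0.05 over the 6 pairs of lines. With the replicate number as a block the clusters were 1084, 1530, 2999, 3380 and 55 and the genes 2, 2, 5, 2 and 0. With the numbers of the α3α9 line crossed, chosen after seeing the data, α3 in cells with α9 had 1976 clusters and 4 genes.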
